A study of Zea mays with 4 samples.

Results

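Predicted miRNAs of 20 to 21 nt are the entries of the deposited miRNA table that the authors inferred from hairpin structures, rather than from a match to known maize miRNAs, and whose mature sequence is 20 or 21 nt long. There are 38 of them, 37 of 21 nt and 1 of 20 nt, among 109 predicted entries and 270 entries in all. They are written here as pred- followed by the hairpin number and arm (5p or 3p) of the deposited table, with a last number where an arm has several entries. Numbers in the paper can differ. It lists the sequence of pred-44-5p under another hairpin number and with another ratio of germinated to mature pollen. Maize of the inbred line B73 gave 4 small RNA libraries, each from a different tissue. Pollinated silks (PS) were harvested 30 min after pollen was applied in excess and loose pollen was shaken off, so PS can hold germinating grains. Mature silks (MS) were unpollinated and about 5 cm out of the bracts. Germinated pollen (GP) was kept for 30 min in liquid medium, with over 90% of grains germinated, and mature pollen (MP) was shaken from tassels. The study compared germinated with mature pollen and pollinated with mature silks, and silks are also set against pollen here.

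A plant miRNA is cut by a Dicer-like enzyme from the stem of a folded precursor RNA, which leaves a duplex of a 5p and a 3p arm. An ARGONAUTE protein usually keeps the strand called the miRNA, and the other strand, the miRNA star, is mostly degraded. The kept strand guides cleavage or repression of messenger RNAs that pair with it. Most plant miRNAs of 21 nt are products of DCL1, whereas 24-nt small RNAs are typically products of DCL3. The tissue labels could not be checked against marker mRNAs, since the table holds small RNAs alone.

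Library depth was 5205129 clean reads in PS, 5775303 in MS, 10575042 in GP and 3638941 in MP. Levels are given as reads and as TPM, here reads per 1000000 clean reads, and 1 read equals 0.192 TPM in PS, 0.173 in MS, 0.0946 in GP and 0.275 in MP. A count of 0 is taken as up to 3 reads, or 0.576 TPM in PS, 0.519 in MS, 0.284 in GP and 0.824 in MP. Folds given below as "at least" or as bounds set a 0 to these 3 reads and take the other count as read. They leave out the counting error of that other count, have no interval and are not 95% bounds. A tissue with 1 library has no replicate, so the 2-sided Fisher's exact tests below compare libraries, not tissues, and all intervals (exact, 95%) cover counting error only. In such bulk samples fewer cells of a type and less RNA per cell cannot be told apart.

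The sequences that carry the main differences are printed in the DNA letters of the deposited table, 5′ to 3′, with the seed (bases 2 to 8) in capitals. The first set was higher in GP than in MP, as was pred-14a-5p in the last set.
pred-7-3p: aAATCCTTtgggaaaatgagg
pred-2-5p: cAAAGAGAattgagggggcta
pred-29-3p: aTCACCTTcggttttgtggct
pred-59-3p: cAATTTAGggactaaaacgaa
pred-27-3p: tCCACTACgtcggcaagggtg
pred-47-3p: tGTTTATAgaatgtaatttga
The next set was lower in GP than in MP.
pred-56-5p: tGAATGGTggagcttggagcc
pred-38b-3p: aATCCTCCtctggattggtgt
pred-26-3p: tCCCCTTCaattccctctggt
The next pair was highest in silks, and zma-miR159a, a known miRNA of the table, is set beside pred-44-5p because the 2 share their seed.
pred-17-5p: aTCGAATGagattggggggat
pred-44-5p: tTTGGATTgaattggttggtg
zma-miR159a: tTTGGATTgaagggagctctg
The arms of hairpins 50 and 28 are shown because each hairpin had one arm mainly in pollen and the other mainly in silks.
pred-50-5p: aATACACAtgggttgagggag
pred-50-3p: tTCAACCCatgtgtattgaga
pred-28-5p: gATCCCGGgagaatcggaggg
pred-28-3p: aATCCCCTccaatcctctcgggat
The last set shares a guanine-rich stretch.
pred-14a-5p: aGAGGGGAttggaggggcta
pred-14b-5p: aGAGGGGAttggaggggctaa
pred-26-5p: cGGAGGGAattggaggggcta
pred-42-5p: gATTGAGAgggattggagggg
pred-1-5p: aTGGAGTGgattgagggggct
pred-19-5p: gTTTGGAGgagattgaggggc

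These miRNAs were rare and mostly found in pollen. Their summed level was 51.7 TPM in PS, 54.4 in MS, 189 in GP and 156 in MP. At least 1 read was found for 15 of the 38 in PS, 26 in MS, 34 in GP and 31 in MP. Because GP was sequenced most deeply, the count was repeated at the level that 3 reads give in MP, the shallowest library (a limit chosen after seeing the data), and was then 11 in PS, 14 in MS, 23 in GP and 25 in MP. For 25 of the 38 the level in each pollen library exceeded that in each silk library, and for 7 each silk library exceeded each pollen library. Reads in all 4 libraries were found for 10. The most abundant in PS and in MS was pred-44-5p, with 28.3% and 25.8% of the members' reads, in GP it was pred-2-5p with 13.7%, and in MP it was pred-56-5p with 37.5%.

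**Figure D1:**
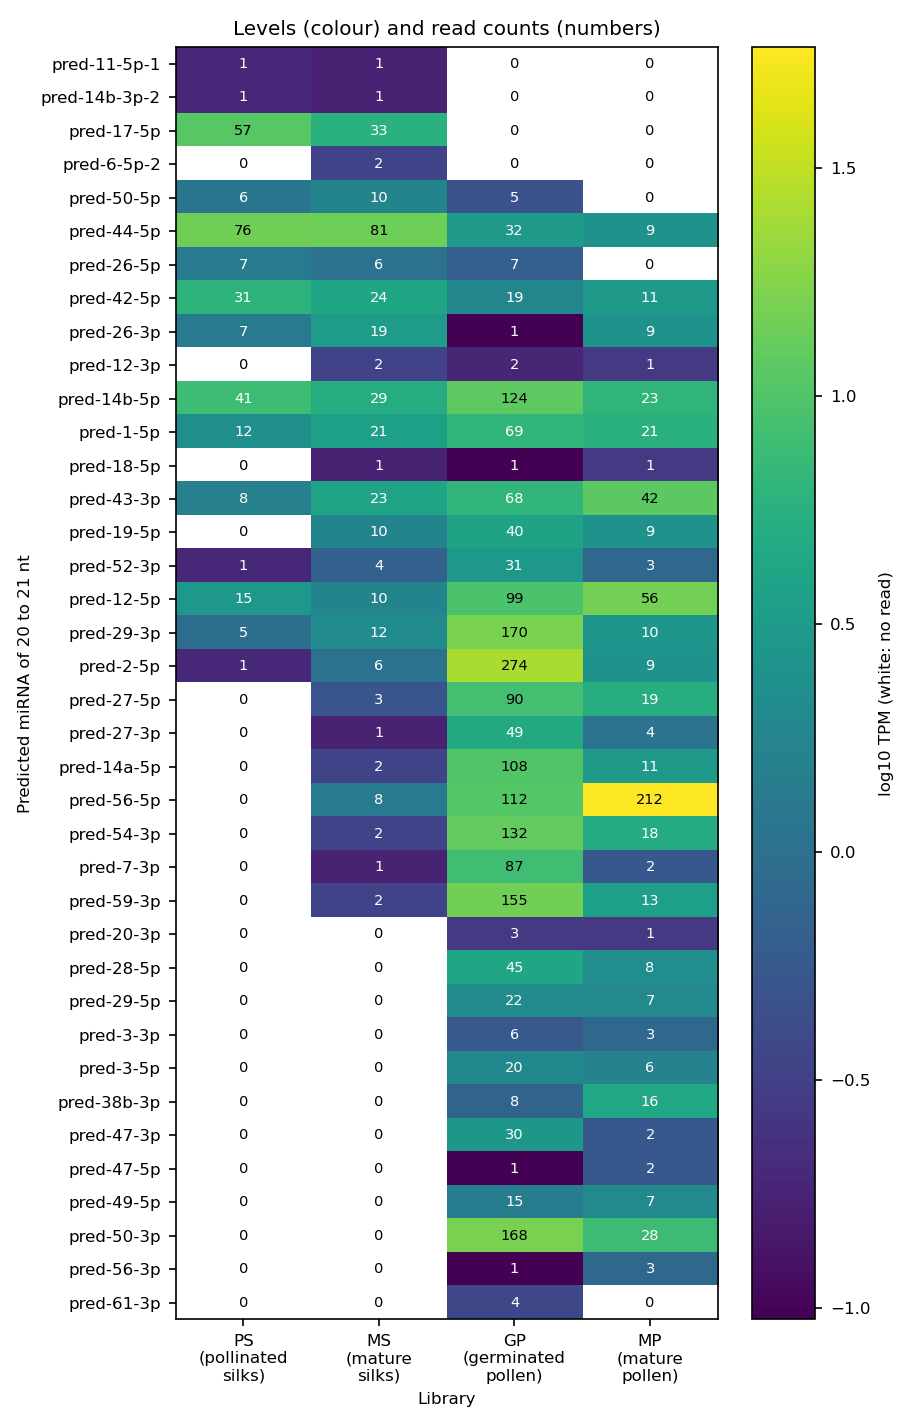
Level of each predicted miRNA of 20 to 21 nt (rows) in the 4 libraries (columns), as log10 TPM in colour with the read count printed in each cell; white cells have no read. Rows are sorted by the share of their summed TPM in silks, and the lowest 12 rows have 0 reads in both silk libraries.

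In GP, a small set of these miRNAs was several-fold higher than in MP and 3 were lower. A member was called where its p was under 0.01 and its log2 ratio exceeded 1.5 in either direction. By these limits, 7 of the 34 with a read in either library were higher in GP than in MP (20.6%), against 12.2% of all distinct sequences of the table. Lower in GP were 3 of 34 (8.82%), against 8.94% of all distinct sequences. The authors kept predicted miRNAs with more than 5 reads in a library, and describe no such filter for the known sequences. GP is the deepest library, and pred-7-3p, pred-27-3p and pred-47-3p exceeded 5 reads there alone. The shares are therefore not on equal terms, and the p-values of such members are not free of that choice. The median log2 ratio was 0.29 over the 29 that had a ratio and -0.15 over all distinct sequences with one, with a count of 0 set to 3 reads. That setting gives pred-26-5p, pred-50-5p and pred-61-3p ratios of -0.32, -0.80 and -1.12, although they had reads in GP and 0 in MP. The sign of these values shows no direction. Members with 3 or fewer reads in each library have no ratio.

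The highest ratio was that of pred-7-3p, with 87 reads in GP and 2 in MP (15.0-fold, interval 4.02 to 126, Fisher's exact p = 2.7e-09). It had 0 reads in PS and 1 in MS, so nearly all of its reads came from germinated pollen. The most abundant member in GP, pred-2-5p, had 274 reads in GP and 9 in MP (10.5-fold, 5.44 to 23.2, Fisher's exact p = 1.6e-24), with 1 in PS and 6 in MS.

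pred-29-3p had 170 reads in GP and 10 in MP (5.85-fold, 3.10 to 12.4, Fisher's exact p = 2.3e-12), with 5 in PS and 12 in MS. pred-59-3p had 155 reads in GP and 13 in MP (4.10-fold, 2.33 to 7.88, Fisher's exact p = 4.6e-09), with 0 in PS and 2 in MS. pred-14a-5p had 108 reads in GP and 11 in MP (3.38-fold, 1.81 to 6.97, Fisher's exact p = 1.2e-05), with 0 in PS and 2 in MS. These 3 thus peaked in GP among the 4 libraries, as did the 2 before them.

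pred-27-3p had 49 reads in GP and 4 in MP (4.22-fold, 1.55 to 16.1, Fisher's exact p = 0.0014), with 0 in PS and 1 in MS. pred-47-3p had 30 reads in GP and 2 in MP (5.16-fold, 1.31 to 44.6, Fisher's exact p = 0.0081), with 0 in PS and 0 in MS. Its interval reaches close to 1, and its Benjamini-Hochberg adjusted p over all distinct sequences was 0.025 by Fisher's exact test, so it is the only one of the 7 that misses 0.01 after adjustment. By the unadjusted chi-square test, the kind the study used, pred-47-3p also missed the limit on p, and 6 members were higher.

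The decrease in GP was clearest for pred-56-5p, the most abundant member over the 4 libraries with 332 reads. It had 112 reads in GP and 212 in MP, or 10.6 and 58.3 TPM, a level 5.50-fold lower in GP (4.35 to 6.98, Fisher's exact p = 4.4e-51), and 0 reads in PS and 8 in MS. pred-38b-3p had 8 reads in GP and 16 in MP (5.81-fold lower, 2.35 to 15.7, Fisher's exact p = 2.8e-05), with none in either silk library. pred-26-3p had 1 read in GP and 9 in MP (ratio 0.038, 8.7e-04 to 0.28, Fisher's exact p = 3.6e-05), but 7 in PS and 19 in MS.

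Several other members moved less. pred-50-3p had 168 reads in GP and 28 in MP, with none in silks, and pred-54-3p had 132 in GP and 18 in MP, with 0 in PS and 2 in MS. Their levels were 2.06-fold (1.38 to 3.20) and 2.52-fold (1.54 to 4.39) those in MP, with Fisher's exact p = 1.5e-04 and 5.1e-05, under the limit of 1.5 on the log2 scale. pred-14b-5p had 124 reads in GP and 23 in MP, a level 1.86-fold higher (1.18 to 3.03, Fisher's exact p = 0.0045).

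Both pred-12-5p and pred-43-3p had more reads in GP but a lower level there, because GP is the deeper library. pred-12-5p had 99 reads in GP and 56 in MP, or 9.36 and 15.4 TPM (ratio 0.608, 0.434 to 0.860, Fisher's exact p = 0.0041). pred-43-3p had 68 reads in GP and 42 in MP, or 6.43 and 11.5 TPM (ratio 0.557, 0.374 to 0.839, Fisher's exact p = 0.0042). Neither ratio passed the limit on size, and with factors from the known sequences both turn positive, to 0.69 and 0.56 on the log2 scale with TMM.

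The intervals of the remaining members with at least 10 reads spanned a ratio of 1, or nearly so. pred-52-3p had 31 reads in GP and 3 in MP (3.56-fold, 1.11 to 18.2), and its Fisher's exact p of 0.028 missed 0.01. pred-27-5p had 90 reads in GP and 19 in MP, pred-28-5p had 45 in GP and 8 in MP, and pred-19-5p had 40 in GP and 9 in MP, with ratios between 1.53 and 1.94. pred-1-5p (69 reads in GP, 21 in MP), pred-44-5p (32 and 9), pred-29-5p (22 and 7) and pred-3-5p (20 and 6, with none in silks) had ratios between 1.08 and 1.22. For pred-42-5p (19 reads in GP, 11 in MP) and pred-49-5p (15 and 7) the ratios were 0.594 and 0.737.

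These ratios depend on the scaling. With TMM factors taken from the known sequences, every log2 ratio of GP to MP rises by 1.41, and 16 members were then higher and 1, pred-26-3p, was lower. The shift applies to all distinct sequences, whose share called was not taken under this scaling. The 7 members above were higher in GP under all 3 other scalings tried, while pred-56-5p and pred-38b-3p kept a lower level in GP but missed the limit under TMM.

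**Figure D2:**
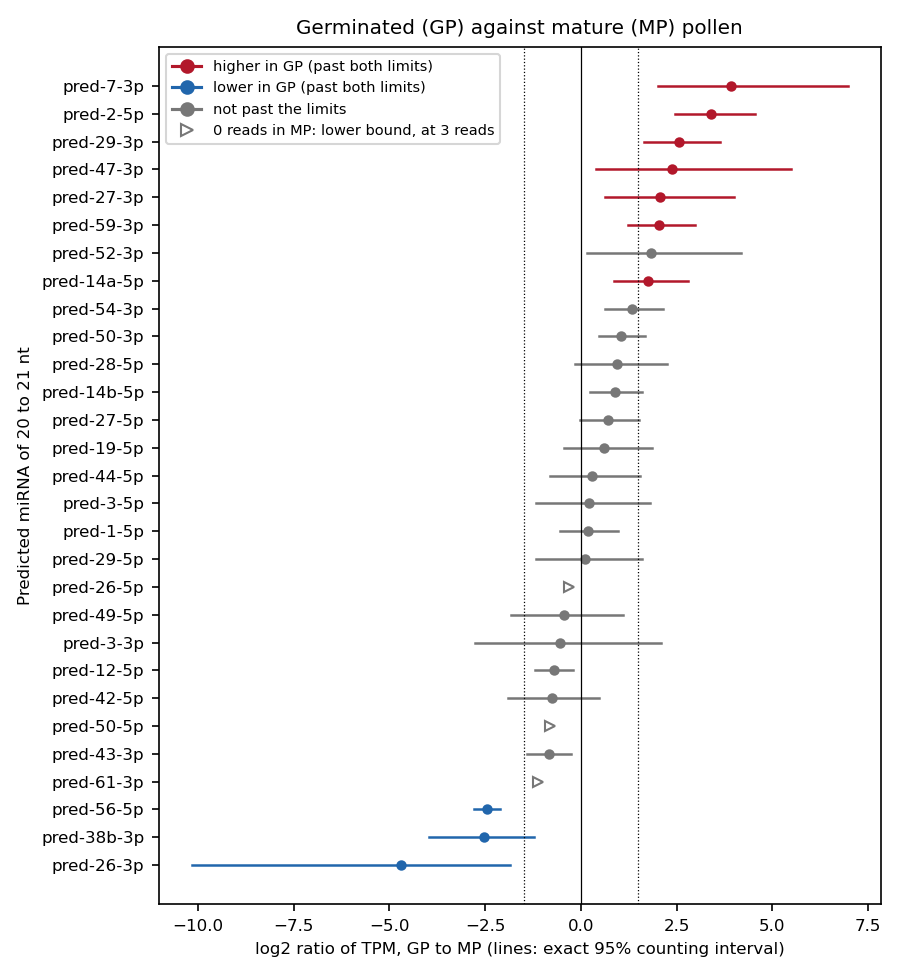
log2 ratio of GP to MP (horizontal axis) for the 29 predicted miRNAs of 20 to 21 nt that had a ratio, with exact 95% counting intervals as lines and dotted lines at 1.5 in either direction. The 7 in red were higher in GP and the 3 in blue lower. Open triangles are lower bounds with the 0 reads of MP set to 3, and they lie below 0 although only GP of the 2 libraries had reads.

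Set against pollen, silks held little of most members. In MS, 13 of 37 were lower than in MP (35.1%), against 13.6% of all distinct sequences, and 2 of 37 were higher (5.41%), against 29% of all distinct sequences. In PS, 19 of 37 were lower than in GP (51.4%), against 20.1% of all distinct sequences, and 4 of 37 were higher (10.8%), against 42.5%. Lower in both comparisons were 11 members, but no share over all distinct sequences was taken for this overlap. The count of 11 therefore cannot be read as a trait of the members. The authors' filter on reads applies to the members here too, so these shares are likewise not on equal terms. With TMM factors from the known sequences, 22 were lower and 0 higher in MS, and 25 were lower and 1 higher in PS. That scaling shifts every sequence alike, and no share over all distinct sequences was taken under it. The rise in lower calls cannot be read as a trait of the members. The median log2 ratio was -1.60 for MS to MP and -1.96 for PS to GP over the members, and 0.89 and 2.02 over all distinct sequences. With a 0 set to 3 reads, pred-3-3p and pred-61-3p enter the PS to GP median above 0, although they had reads in GP and none in PS.

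The largest differences from pollen were found for pollen members already named. pred-56-5p had 8 reads in MS and 212 in MP (42.1-fold lower in MS, 20.96 to 98.7, Fisher's exact p = 7.5e-76). In PS it had 0 reads against 112 in GP, at least 18.4-fold lower. pred-2-5p had 1 read in PS and 274 in GP, a ratio of 0.0074 (1.9e-04 to 0.042, Fisher's exact p = 3.4e-46).

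pred-50-3p had no read in either silk library, at least 14.8-fold lower in MS than in MP and at least 27.6-fold lower in PS than in GP. pred-59-3p had 0 reads in PS and was at least 25.4-fold lower there than in GP, and pred-54-3p, also at 0 in PS, was at least 21.7-fold lower. The bound for pred-14a-5p in PS was 17.7-fold. Each of these had over 100 reads in GP, so the bounds rest on the depth of both libraries.

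Smaller bounds in PS against GP were those of pred-27-5p (0 reads in PS, 90 in GP, at least 14.8-fold lower) and pred-7-3p (at least 14.3-fold). pred-29-3p was 16.7-fold lower in PS (7.03 to 52.2). In MS against MP, pred-27-5p had 3 and 19 reads (ratio 0.099), pred-12-5p had 10 and 56 (8.89-fold lower, 4.49 to 19.5) and pred-38b-3p had 0 and 16 (at least 8.46-fold lower). pred-43-3p was lower in both, with 23 reads in MS and 42 in MP (2.90-fold lower) and 8 in PS and 68 in GP (4.18-fold lower).

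A total of 12 members had no read in MS, and none of them had a read in PS. Together they had 323 reads in GP and 83 in MP, or 30.5 and 22.8 TPM. Choosing them by MS alone leaves PS as a separate measurement, in which 0 reads allow a summed level of up to 0.576 TPM, or 1.89% of their level in GP. PS, which can carry germinating pollen, showed no detectable level of these pollen members at this depth.

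A few members were most abundant in silks. pred-17-5p had 57 reads in PS and 33 in MS, or 10.95 and 5.71 TPM, and no read in either pollen library. With 0 set to 3 reads it was 38.6-fold higher in PS than in GP and 6.93-fold higher in MS than in MP. The intervals of its level were 8.29 to 14.2 TPM in PS and 0 to 0.349 in GP. In MS and MP they were 3.93 to 8.02 and 0 to 1.01 TPM. pred-44-5p had 76 reads in PS, 81 in MS, 32 in GP and 9 in MP, and was 4.83-fold higher in PS than in GP (3.15 to 7.54, Fisher's exact p = 2.5e-15) and 5.67-fold higher in MS than in MP (2.84 to 12.8, Fisher's exact p = 1.5e-09).

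pred-42-5p had 31 reads in PS, 24 in MS, 19 in GP and 11 in MP, and was 3.31-fold higher in PS than in GP (1.81 to 6.21, Fisher's exact p = 3.0e-05). pred-26-3p, with 7 reads in PS and 1 in GP, had a ratio of 14.2 with a wide interval (1.83 to 641, Fisher's exact p = 0.0024). Scaling on known sequences, which are mostly far higher in silks, moves log2 ratios of MS to MP by -3.36 and of PS to GP by -3.09 (TMM). The direction for pred-44-5p in both comparisons, and for pred-42-5p in PS against GP, turns under that scaling, whereas pred-17-5p, the only member with over 5 reads that both pollen libraries lacked, stays higher in PS than in GP.

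Pollinated and mature silks were compared next. With a count of 0 set to 3 reads, none of the 26 with a read in either silk library passed the limits on ratio and p for silks. The shares of all distinct sequences were 6.96% higher and 2.53% lower in PS than in MS. So small a share over all sequences leaves nothing to read from a count of 0 among the members. The count of 0 lower also depends on setting 0 reads to 3. At 0 reads in PS, pred-19-5p and pred-56-5p could then reach only -1.59 and -1.27 on the log2 scale, short of the limit of -2. That setting was made here and is no part of the study's limits, under which the study lists both as lower in PS. At an unadjusted p under 0.05, Fisher's exact test and the chi-square test each gave 1 higher and 4 lower. The share of all distinct sequences at this limit was not taken.

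The higher one was pred-17-5p, at 1.92-fold the MS level (1.23 to 3.04, Fisher's exact p = 0.0029), which missed the limit on size. Those lower in PS were pred-19-5p with 0 reads in PS and 10 in MS (at least 3.004-fold lower, Fisher's exact p = 0.0022), pred-56-5p with 0 and 8 (at least 2.40-fold, p = 0.0084), pred-43-3p with 8 and 23 (2.59-fold, 1.12 to 6.70, p = 0.019) and pred-26-3p with 7 and 19 (2.45-fold, 0.985 to 6.89, p = 0.048). With 1 read added to each count, pred-19-5p and pred-56-5p passed the limits.

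By contrast pred-44-5p, the most abundant member in silks, was at the same level within a narrow interval, 14.6 TPM in PS and 14.0 TPM in MS (ratio 1.04, 0.751 to 1.44). pred-14b-5p had 41 reads in PS and 29 in MS (1.57-fold, 0.952 to 2.62). pred-12-5p had 15 in PS and 10 in MS, pred-1-5p had 12 and 21, and pred-29-3p had 5 and 12, and all 3 intervals span 1. For 11 members MS held reads and PS none, and for 0 members the reverse held, but those 11 had only 34 reads in MS.

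The 38 members come from 29 hairpins, 21 from the 5p arm and 17 from the 3p arm. Entries for both arms are listed for 18 of the hairpins, and in 9 of these both arms have a member. Taking the most-read entry of each arm, the more abundant arm had between 1.80 and 645 times the reads of the other over the 4 libraries. The median was 6.15, and 7 of 18 hairpins had arms within 5-fold. In hairpins 6 and 11, at 19 and 645 times, both of these entries are of 22 nt and not members. The 5p arm was the larger in 9 and the 3p arm in 9. With the most-read entry of each arm, RNAduplex paired 14 to 21 bases, and 1 duplex, that of hairpin 29, had the overhang of 2 nt at both 3′ ends that Dicer cleavage typically leaves. The entries of an arm can come from different copies of a hairpin, so this pairing is a description of the listed sequences.

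Both arms stood near each other in reads for hairpin 27, with 112 reads for pred-27-5p and 54 for pred-27-3p. They stood far apart for hairpin 56, with 332 reads for pred-56-5p and 4 for pred-56-3p, and for hairpin 12, with 180 and 5.

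In hairpin 50 the arm with more reads differed between the silk and the pollen libraries. pred-50-5p had 6 reads in PS, 10 in MS, 5 in GP and 0 in MP, while pred-50-3p had 0 in PS, 0 in MS, 168 in GP and 28 in MP. The 5p share of the reads was 100% in MS (69.2 to 100) and 0% in MP (0 to 12.3), with a Benjamini-Hochberg adjusted Fisher's exact p of 4.2e-08 over 20 tests in 12 hairpins. It was the only hairpin past 0.01 among those with at least 10 reads in each library. The share in MS rests on 10 reads, and with at least 20 reads in each library 0 hairpins passed. Moreover, pred-50-5p exceeded 5 reads in silks alone and pred-50-3p in pollen alone. The p-values of hairpin 50 between silks and pollen, here and below, are therefore not free of the authors' filter on reads. In GP the 5p share was 2.89% (0.945 to 6.62).

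With at least 5 reads in each library, a limit lowered after the values were seen, PS against GP also differed in hairpin 50 (6 and 0 reads of the 5p and 3p arms in PS, 5 and 168 in GP, adjusted Fisher's exact p = 2.1e-07 over 39 tests). Hairpins 26 and 28 passed as well. In hairpin 26, GP had 7 reads of the 5p arm and 1 of the 3p arm and MP had 0 and 9 (adjusted Fisher's exact p = 0.0032), whereas PS had 7 and 7 and MS had 6 and 19. In hairpin 29 the 5p share was 11.5% in GP (7.32 to 16.8) and 41.2% in MP (18.4 to 67.1), which missed the limit (adjusted Fisher's exact p = 0.035).

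A 24-nt partner arm was listed for 5 of the hairpins, and in 3 of them no library had reads of both arms. Among all 42 entries of 24 nt, 28 had 0 reads in both pollen libraries. Among the 38 members, 12 had 0 reads in both silk libraries. The split was not tested against these shares, and in hairpins 20 and 61 it rests on members with 4 reads each. pred-28-5p, of 21 nt, had 0 reads in PS, 0 in MS, 45 in GP and 8 in MP, and its 24-nt partner pred-28-3p had 6 in PS, 6 in MS and 0 in both pollen libraries. The arms of hairpin 28 gave an adjusted Fisher's exact p of 7.2e-07 for PS against GP with the lowered limit of 5 reads. Here pred-28-5p exceeded 5 reads in pollen alone and pred-28-3p in silks alone. That p is therefore not free of the authors' filter on reads, and no support is drawn from it. pred-61-3p had 4 reads in GP and none elsewhere, and its 24-nt partner had 9 in PS, 12 in MS and none in pollen.

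In hairpin 20 the member, pred-20-3p, had 3 reads in GP and 1 in MP, and its 24-nt partner had 17 in PS and 5 in MS alone. Hairpin 38b had the member in pollen only (8 reads in GP, 16 in MP) and 24-nt reads in PS, MS and GP (2 each for the most-read entry). Hairpin 52 went otherwise, as its 24-nt partner had 2 reads in PS, 4 in MS, 51 in GP and 22 in MP, and pred-52-3p had 1, 4, 31 and 3. Such a split was not seen in the 5 hairpins with a 22-nt partner (6, 11, 14b, 18 and 49), where at least 1 library had reads of both arms.

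**Figure D3:**
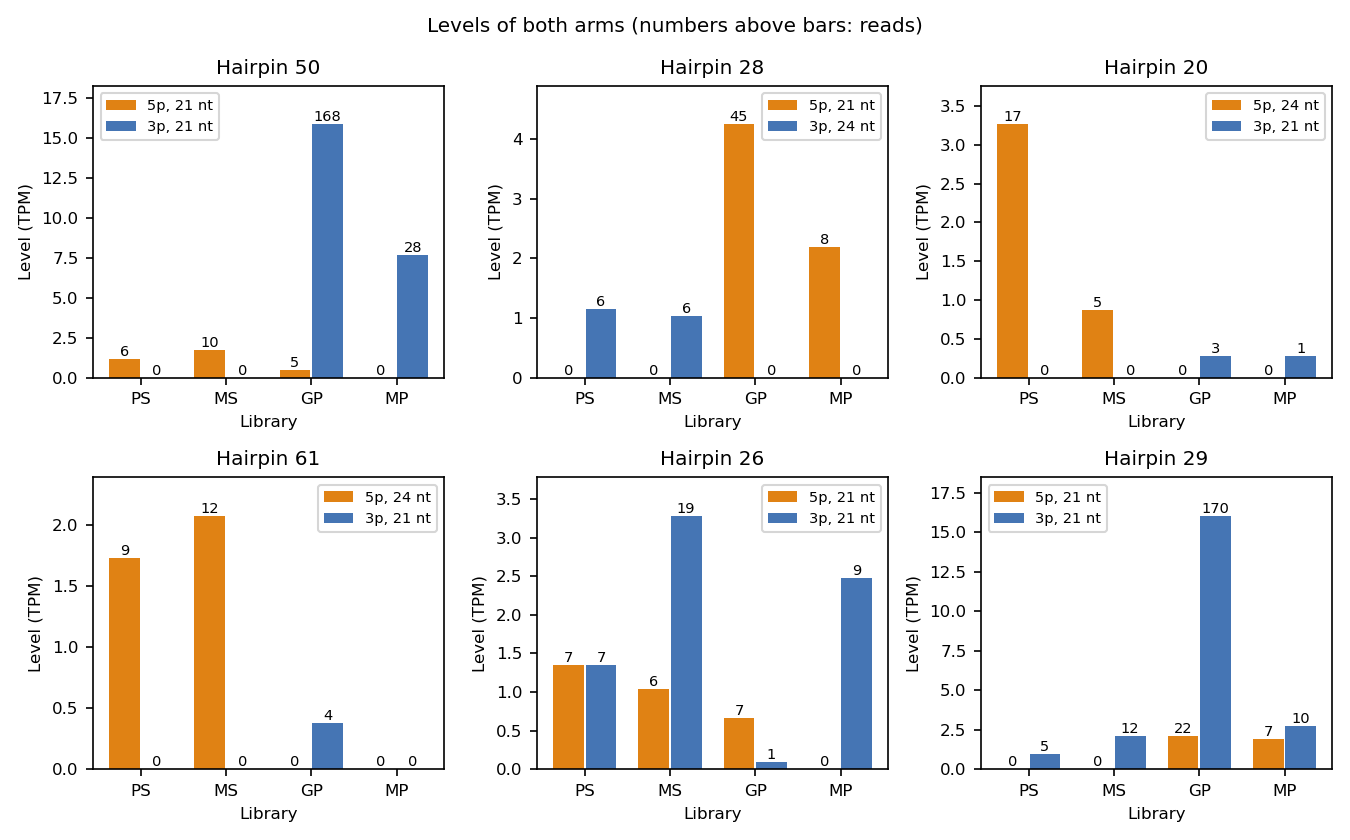
Level in TPM (vertical axis) of the 5p arm (orange) and the 3p arm (blue) of 6 hairpins in the 4 libraries, with reads above the bars and the arm lengths in each key. Hairpins 50, 28, 20 and 61 have one arm with reads in silks and the other with reads in pollen; hairpin 50 also has 5 reads of its 5p arm in GP.

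Predicted miRNAs of other lengths were spread differently over the tissues, although that difference was not tested. Each pollen library exceeded each silk library for 25 of 38 members (65.8%), 11 of 29 entries of 22 to 23 nt (37.9%) and 4 of 42 entries of 24 nt (9.52%). The opposite order was seen in 7 (18.4%), 9 (31.0%) and 31 (73.8%). Members made up 9.97% of the reads of all predicted miRNAs in PS (8.87 to 11.2), 12.7% in MS (11.4 to 14.1), 55.6% in GP (54.0 to 57.2) and 60.4% in MP (57.2 to 63.6). In silks 1 entry of 22 nt, pred-11-3p, had 1460 reads in PS and 1112 in MS, against 269 and 314 for all members together.

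**Figure D4:**
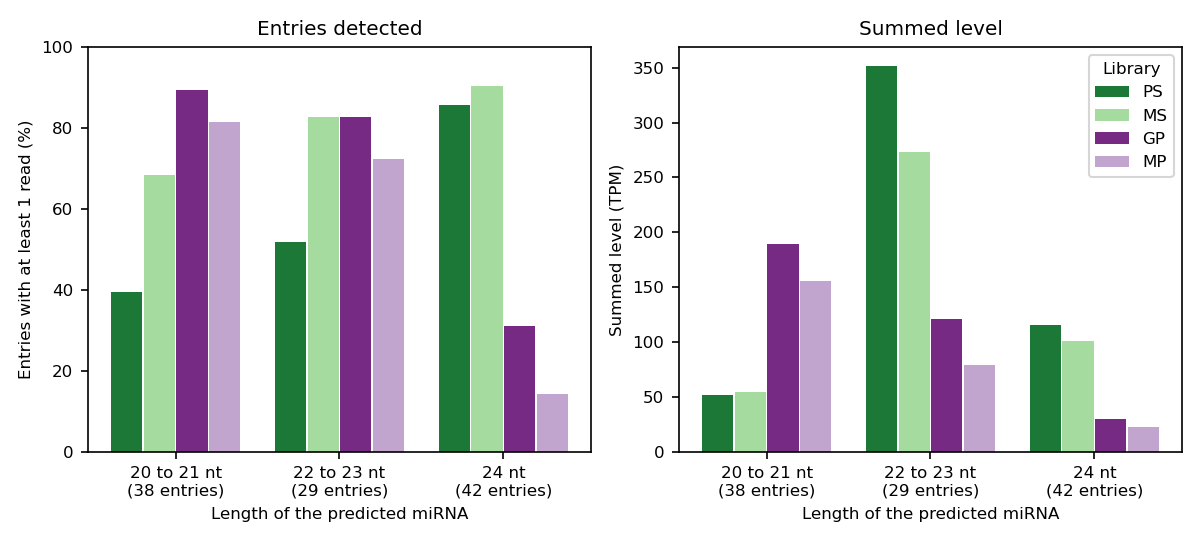
Share of entries with at least 1 read in % (left) and summed level in TPM (right) for predicted miRNAs of 20 to 21, 22 to 23 and 24 nt in the 4 libraries. For the 20 to 21 nt class the pollen bars (89.5% in GP, 81.6% in MP) exceed the silk bars (39.5% in PS, 68.4% in MS), and for 24 nt the silk bars are higher.

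The first base of a small RNA influences the choice of ARGONAUTE in plants. A uridine, typical for AGO1 and written T in the table, stood first in 8 of 38 members (21.1%) and in 54 of the 72 distinct known sequences (75.0%). Adenine stood first in 16 members (42.1%). In the 24-nt entries adenine was first in 29 of 42 (69.0%). The GC content of members ranged between 19.05% in pred-47-3p and 81.0% in pred-11-5p-1, with a median of 47.6%.

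Each seed belonged to a single member but for pred-14a-5p and pred-14b-5p, so that the 38 have 37 distinct seeds. pred-44-5p had the seed of zma-miR159a, a family that targets GAMYB-like transcription factors, and shared its first 11 bases and 14 of 21 in all. Their levels differed widely, with 14.6 TPM in PS, 14.0 in MS, 3.03 in GP and 2.47 in MP for pred-44-5p and 6061, 5272, 788 and 568 TPM for zma-miR159a. Both were higher in both silk libraries. No other member shared a seed with a known sequence of the table.

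Shared stretches of at least 10 bases linked 8 members into 2 groups. The larger held pred-14a-5p, pred-14b-5p, pred-26-5p, pred-29-5p and pred-42-5p, and the smaller pred-1-5p, pred-2-5p and pred-19-5p. The run GGGG, picked after the sequences were seen and searched on the printed strand only, occurred in these 8 and in pred-17-5p, or 9 of 38 members (23.7%), 2 of 29 entries of 22 to 23 nt, 4 of 42 of 24 nt and 3 of 72 known sequences.

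Likeness in sequence went with unlike levels. pred-14a-5p is pred-14b-5p without its last base, yet in PS the shorter had 0 reads and the longer 41, while in GP they had 108 and 124. Since the authors added length variants of up to 2 bp, it is uncertain how reads of this pair were divided. pred-26-5p shares 13 bases with both and had 7 reads in PS, 6 in MS, 7 in GP and 0 in MP. pred-17-5p, found only in silks, and pred-2-5p, found mainly in GP, both carry the guanine run.

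Some of these sequences are repeated in the genome. The authors list a single precursor locus for 28 members and several for 10, up to 14 for pred-1-5p, 7 for pred-12-5p and 5 for pred-14b-5p. Reads of a repeated sequence cannot be assigned to 1 locus.

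Target sites were predicted by the authors for 21 of these 38 miRNAs, on 60 transcripts of 48 genes. These sites come from sequence pairing and carry no measurement of the target. Of the 45 targets with GRMZM identifiers, 20 were matched in the RefSeq gene table (assembly Zm-B73-REFERENCE-NAM-5.0), none of them with a gene symbol of its own, so the descriptions below are those of the study, which cover 35 of the 48 genes.

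The pollen member pred-50-3p has 4 target genes, which encode a MAP65/ASE1 microtubule-associated protein (GRMZM2G030284), the translation factor subunit eIF3A (GRMZM2G070487), spermidine synthase 3 (GRMZM2G120578) and a ribonuclease H fold protein (GRMZM2G118917). pred-49-5p, with 15 reads in GP, 7 in MP and none in silks, is paired with 3 microtubule motor proteins. pred-28-5p is paired with 2 transcription factors and an NB-ARC and leucine-rich repeat protein (GRMZM2G060583), a class known for pathogen resistance. pred-29-5p, with 22 reads in GP, 7 in MP and none in silks, is paired with plasmodesmata callose-binding protein 5 (GRMZM2G102322).

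pred-56-5p, higher in MP than in GP, has 1 target, described as mitogen-activated protein kinase kinase kinase 7 (GRMZM2G084586). pred-12-5p is paired with a RING/U-box protein (GRMZM2G102243) and CRINKLY4 related 3 (GRMZM5G862277), and pred-52-3p with a WNK kinase (GRMZM2G302293). Among members that were higher in PS than in GP, pred-42-5p alone has targets, a pair of leucine-rich repeat transmembrane kinases (GRMZM2G002818 and GRMZM2G168795). pred-17-5p, pred-44-5p and pred-2-5p have none listed.

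A total of 5 target genes are listed for more than 1 member. All 4 targets of pred-14b-5p are among the 6 of pred-14a-5p, including a SNARE-associated Golgi protein (GRMZM2G004784) and a ribosomal protein of the L14p/L23e family (GRMZM2G078396). The fifth, a RING/FYVE/PHD zinc finger protein (GRMZM2G109464), is shared by pred-14a-5p and pred-1-5p. Members with fewer than 10 reads account for 18 of the 48 target genes, 8 of them those of pred-61-3p, which had 4 reads.

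The 10 members with fewer than 10 reads in all had between 2 and 9. They are pred-3-3p, pred-6-5p-2, pred-11-5p-1, pred-12-3p, pred-14b-3p-2, pred-18-5p, pred-20-3p, pred-47-5p, pred-56-3p and pred-61-3p. For all 10 the opposite arm of the hairpin has an entry with at least 10 reads. Only pred-3-3p, with 6 reads in GP and 3 in MP, exceeded 5 reads in a library. No ratio between tissues can be read from the others at this depth. The remaining 28 had between 20 and 332 reads, with a median of 90.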

How the data were processed

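Per the labels and the study's methods, small RNAs of 18 to 30 nt were sequenced from 1 library per tissue, and the authors mapped clean reads with SOAP to B73 RefGen v2. They predicted miRNAs with Einverted, RNAfold and MirCheck, keeping those with more than 5 reads in a library (29 of the 38 members reach this), so reads of these libraries entered the choice. The deposited counts are whole reads per entry, with variants of up to 2 bp added by the authors, and the deposited TPM values are counts per 1000000 clean reads. The deposited chi-square p-values between libraries were not used. All columns of values per sample were used (0 unused).

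Clean reads were recovered from counts and TPM. Libraries were compared per distinct sequence (181, of which 72 known) with a 2-sided Fisher's exact test and Benjamini-Hochberg adjustment in SciPy 1.17.1. Calls needed p under 0.01 with a log2 ratio beyond 1.5 in either direction; for silks, higher also required a silk count over 10 times that of a pollen library, and lower a log2 ratio under -2. A count of 0 was set to 3 reads. edgeR and DESeq2 gave scaling factors only, as 1 library per tissue allows no model. Pairing used RNAduplex 2.7.2. The test was tried on simulated counts that held counting error only, with the levels of rare sequences raised. That trial does not cover members with few reads. Members with at least 10 reads are each described, the others by range. The members and lists were chosen with earlier results of these data known.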

Additional observations from a re-analysis of the deposited data

How the results depend on the processing

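Fisher's exact test, the chi-square test, adjusted p-values, a minimum of 10 reads and 1 added read kept the counts of members within 1.5 times, except that lower in PS than MS became 2 with 1 read added and 1 with the limits used for pollen (0 otherwise). At p under 0.05 alone, an alternative added after seeing the data, 1 was higher and 4 lower in PS. Scaling mattered most. Higher in GP than MP became 16 with TMM and 14 with median ratio factors (7), and lower became 1 with both (3). Higher in MS than MP became 0 under all 3 other scalings (2), and lower 22 with TMM, 22 with median ratio and 21 with table totals (13). Higher in PS than GP became 1 under all 3 (4). No share over all distinct sequences was taken under any of these alternative settings, and a scaling shifts every sequence alike. The changes in these counts cannot be read as a trait of the members. Under TMM, median ratio and table totals, the log2 ratio of PS to GP turned to -1.36, -1.29 and -1.29 for pred-42-5p and -0.82, -0.75 and -0.75 for pred-44-5p, and that of MS to MP to -0.86, -1.03 and -0.011 for pred-44-5p. For pred-17-5p the lower bound of MS to MP fell below 0, to -0.57 with TMM and -0.74 with median ratio. Hairpins with a changed arm share numbered 0 with at least 20 reads and 3 with at least 5 (1), the latter limit added after seeing the data. Of 48 ratios of single members past the limits, 41 kept their call under TMM, 41 under median ratio and 43 under table totals. No paired analysis was possible because each tissue has 1 library. Members detected in MS numbered 14 with more than 5 reads (26). Depth limits every member, as most have under 100 reads, and counting intervals hold no biological spread.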
